A study of Ovis aries with 15 samples.

Results

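The Hippo pathway and its YAP/TAZ target genes were followed in the mammary gland of the sheep between late pregnancy and lactation. The set held 10 genes, taken by their symbols from the deposited table: the coactivators YAP1 and WWTR1, the DNA-binding partners TEAD1 and TEAD4, the kinases LATS1 and LATS2, and the targets CTGF, CYR61, AMOTL2 and ANKRD1. Symbols found 9 of them among the 24691 features. CYR61 had no row under that symbol and was found only by its gene ID, LOC100037673, which RefSeq now names CCN1, so it was counted apart from the other 9.

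The libraries were made from needle biopsies of the udder parenchyma of Romney ewes carrying or rearing their first lambs, and each pooled the RNA of several ewes. Late pregnancy stands for gestation day 135 (SD 2.4 days) and lactation for day 15 after lambing (SD 1.27 days). There were 9 late pregnancy and 6 lactation pools. All ewes were grazed alike, and the pools differed further only in the early-gestation feed of the ewes' own dams between days 21 and 50: ad libitum (HM), maintenance (MM) or sub-maintenance (LM), followed in every group by maintenance feed, with 3 late pregnancy and 2 lactation pools in each. The series design puts 3 ewes into each late pregnancy pool and 2 into each lactation pool. The study's methods describe equal pools, so each value is an average over an uncertain small number of animals. By those methods, ewes biopsied in late pregnancy were biopsied again in early lactation, so animals recur in both states. The labels do not say which pools each ewe went into.

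In the Hippo pathway, the kinases MST1 and MST2 with SAV1 activate LATS1 and LATS2 with MOB1, and LATS phosphorylation holds the coactivators YAP1 and TAZ (encoded by WWTR1) in the cytoplasm or marks them for degradation. Unphosphorylated YAP1 and TAZ enter the nucleus and bind TEAD factors, which switch on genes such as CTGF, CYR61, ANKRD1 and AMOTL2. AMOTL2 and LATS2 also act as feedback inhibitors, and the pathway is known in the mammary gland for its role in epithelial growth and differentiation. Because control runs largely through phosphorylation, transcript levels do not measure pathway activity.

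Between 7597938 and 19823166 reads fell on genes in the late pregnancy libraries, and between 10352962 and 25679416 in those of lactation. The transcripts of 7 milk protein genes took 13.7% to 23.4% of the exon reads before birth but 71.3% to 75.8% during lactation, so each lactation library left far fewer reads for all other genes. Values are therefore given as CPM, counts per 1000000 reads, scaled by edgeR's TMM factors, which set the libraries to a common level over most genes; on this scale the median change of all 13345 tested genes was -0.03 log2. A gene was called where edgeR's quasi-likelihood test gave a Benjamini-Hochberg adjusted p under 0.05 over those genes. The states differed widely, and 68.4% of tested genes were called, 35.2% lower and 33.1% higher in lactation, while for 40.2% the values of one state all lay above those of the other. A call on a Hippo gene is to be read against that background. Directions are relative to the bulk of genes: scaled by library size alone, the median tested gene changed by -1.94 log2, and every gene named below as higher in lactation, other than NT5E, was then lower. One lactation library, HM pool 1, stood apart before any gene was examined: 12.9% of its gene reads lay in introns, against 5.74% to 6.54% in the other 5 lactation libraries and 13.8% to 15.3% in late pregnancy. Results that rest on it are given with and without it.

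Of the 8 genes found by symbol that passed the filter on low counts, 2 were higher in lactation (TEAD1 and LATS1), 5 were lower (WWTR1, TEAD4, LATS2, CTGF and AMOTL2) and YAP1 was not called. CYR61 was higher, and ANKRD1 was below the filter. The 7 called of 8 stand beside the 68.4% called of all tested genes. The states were fully separated for 3 of the 8 genes, WWTR1, TEAD1 and AMOTL2, beside 40.2% of all tested genes, so separation was not particular to them. Those 3 kept their call in every one of the fits that left out 1 library, as did LATS1, whose change was small. The other calls were small or rested on few reads: 7 of the 8 genes were called with all libraries, 5 without lactation HM pool 1 and 4 without lactation MM pool 2, where TEAD4, LATS2 and CTGF were lost. Of all 13345 tested genes, those fits called 9122, 8981 and 8890.

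**Figure D1:**
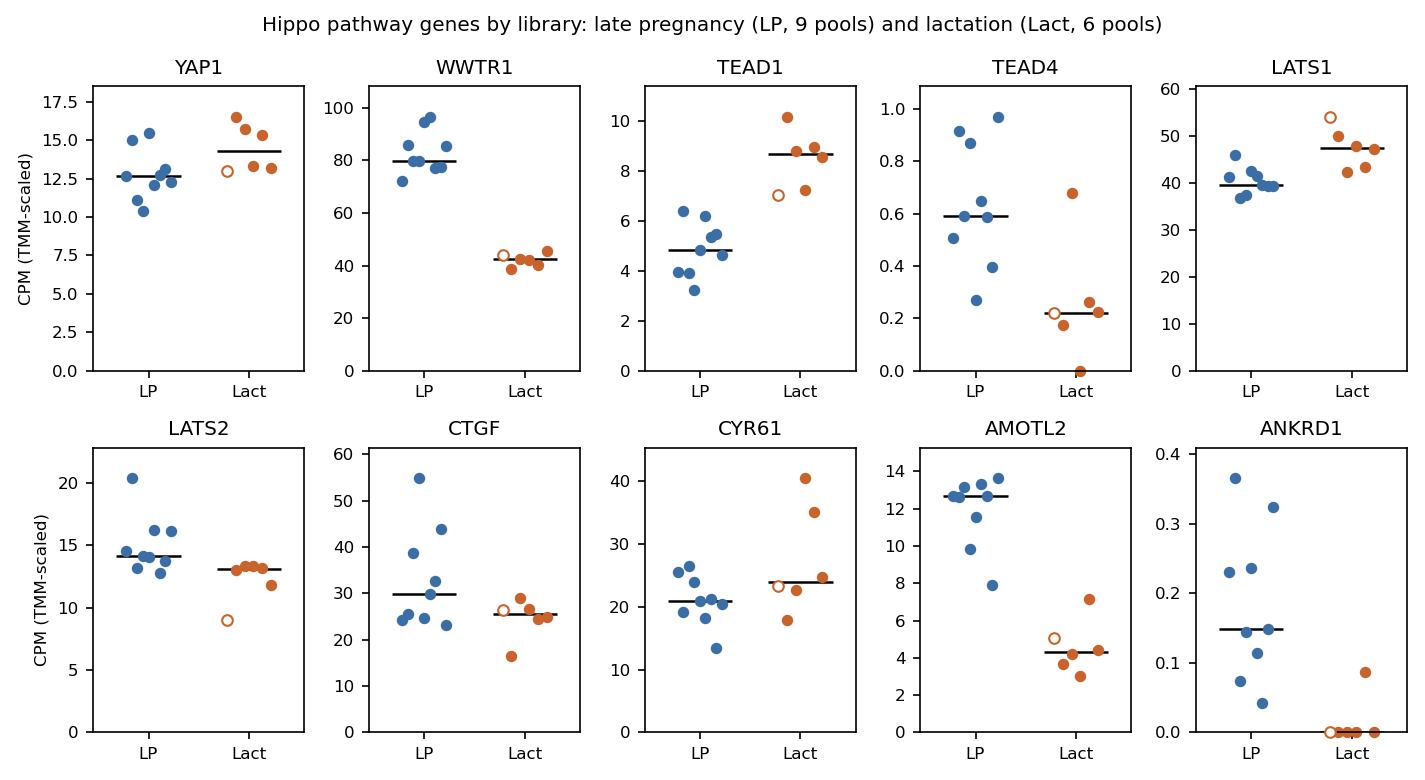
Level of each of the 10 genes in every library (y axis, TMM-scaled CPM, starting at 0), with late pregnancy (LP, 9 pools) in blue and lactation (Lact, 6 pools) in orange; the line is the median of the state and the open circle is lactation HM pool 1. WWTR1, TEAD1 and AMOTL2 are the 3 genes whose libraries separate completely by state, as did those of 40.2% of all tested genes.

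The coactivators behaved differently from each other. YAP1 (chromosome 15, 6073414 to 6208380) had 10.4 CPM in the lowest late pregnancy library, a median of 12.7 and 15.4 in the highest, and in lactation 13.0, 14.3 and 16.5 CPM. The libraries of the 2 states overlapped over much of their range. The change was 0.19 log2 (SE 0.094, 95% interval -0.0040 to 0.39, adjusted p = 0.0758), an interval that runs from about no change to a modest rise. Without late pregnancy HM pool 2 the adjusted p was 0.0436 and without late pregnancy LM pool 2 it was 0.0249, whereas leaving out any other library left it uncalled.

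WWTR1, which encodes TAZ, the paralogue of YAP1 (chromosome 1, 236522086 to 236668823), fell clearly. Late pregnancy libraries ranged from 72.0 to 96.7 CPM around a median of 79.7, and lactation libraries from 38.9 to 45.4 CPM around a median of 42.4. Every lactation library lay below every late pregnancy library, with a wide gap between the groups. The change was -0.98 log2 (SE 0.068, adjusted p = 1.3e-10), a fold of 1.97, and it was -0.99 log2 (adjusted p = 8.9e-10) without lactation HM pool 1.

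TEAD1 (chromosome 15, 39369981 to 39543976) and TEAD4 (chromosome 3, 210770732 to 210809075) encode 2 of the 4 TEAD transcription factors through which YAP1 and TAZ reach DNA. TEAD1 had 3.25, 4.86 and 6.40 CPM in the lowest, median and highest late pregnancy library and 7.03, 8.69 and 10.2 CPM in lactation. All lactation libraries were above all late pregnancy libraries, though by a narrow margin. The change was 0.81 log2 (SE 0.14, adjusted p = 5.1e-05), a fold of 1.75, and 0.85 log2 (adjusted p = 6.6e-05) without lactation HM pool 1, which held the lowest lactation value.

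TEAD4 was scarce. It had 8 to 24 reads per late pregnancy library, or 0.270 to 0.970 CPM with a median of 0.591, and 0 to 5 reads per lactation library, or 0 to 0.678 CPM with a median of 0.223. The groups overlapped, since lactation LM pool 1 was as high as most late pregnancy libraries. The change was -1.14 log2 (SE 0.45, adjusted p = 0.0307). TEAD4 passed the filter through its late pregnancy libraries alone, 7 of which exceeded the cutoff against 0 in lactation, so its lower level in lactation is tied to its being tested at all. Its call was lost without lactation HM pool 2 (adjusted p = 0.0594), LM pool 2 (0.0637), MM pool 1 (0.0656) or MM pool 2 (0.0657).

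The paralogous kinases LATS1 (chromosome 8, 73713220 to 73748862) and LATS2 (chromosome 10, 35862619 to 35886839), which phosphorylate YAP1 and TAZ, moved by small amounts in opposite directions. LATS1 had 36.7, 39.5 and 45.9 CPM in the lowest, median and highest late pregnancy library and 42.2, 47.5 and 54.1 CPM in lactation. The groups overlapped only at their edges. The change was 0.23 log2 (SE 0.061, adjusted p = 0.0027), and it was 0.19 log2 (adjusted p = 0.0104) without lactation HM pool 1, the highest library.

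LATS2 had 12.7, 14.1 and 20.4 CPM in late pregnancy and 9.01, 13.1 and 13.3 CPM in lactation. Most lactation libraries lay within the range of late pregnancy, and the lowest value was that of lactation HM pool 1. The change was -0.27 log2 (SE 0.11, adjusted p = 0.0302). The call was lost without that library (-0.21 log2, adjusted p = 0.0811) and without lactation MM pool 2 (-0.26 log2, adjusted p = 0.0611).

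The secreted matricellular targets CTGF and CYR61, 2 members of the CCN family that are the usual readout genes of YAP and TAZ activity in cultured cells, did not move together. CTGF (chromosome 8, 57077576 to 57078834) had 23.2, 29.9 and 54.9 CPM in the lowest, median and highest late pregnancy library and 16.5, 25.6 and 29.0 CPM in lactation. The late pregnancy libraries were spread widely, with LM pool 1, MM pool 2 and HM pool 3 the highest, and 4 of the 9 lay within the range of lactation. The change was -0.43 log2 (SE 0.19, adjusted p = 0.0472), at the edge of the threshold. Leaving out any of 9 libraries ended the call: late pregnancy HM pool 3 (adjusted p = 0.0716), LM pool 1 (0.0852), MM pool 1 (0.0559) or MM pool 2 (0.0822), or lactation HM pool 1 (0.0584), HM pool 2 (0.12), LM pool 2 (0.0581), MM pool 1 (0.0753) or MM pool 2 (0.0719).

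CYR61 (chromosome 1, 62004718 to 62008006) had 13.5, 20.9 and 26.5 CPM in late pregnancy and 17.9, 24.0 and 40.5 CPM in lactation. The groups overlapped, and only lactation LM pool 2 and MM pool 1 were above every late pregnancy library. The change was 0.39 log2 (SE 0.16, adjusted p = 0.0345). The call was lost without lactation LM pool 2 (0.26 log2, adjusted p = 0.136), lactation MM pool 1 (0.29 log2, 0.129), or late pregnancy HM pool 2 (0.37 log2, 0.0504), LM pool 3 (0.36 log2, 0.0555) or MM pool 2 (0.32 log2, 0.0512).

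AMOTL2 (chromosome 1, 253009718 to 253034102), a motin-family scaffold that is induced by YAP and TAZ and restrains them in turn, had the largest fall among the listed genes that were tested. It had 7.92, 12.7 and 13.6 CPM in the lowest, median and highest late pregnancy library and 3.05, 4.30 and 7.14 CPM in lactation. The highest lactation library stayed just below the lowest late pregnancy library. The change was -1.32 log2 (SE 0.16, adjusted p = 5.2e-07), a fold of 2.49, and -1.33 log2 (adjusted p = 2.1e-06) without lactation HM pool 1.

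ANKRD1 (chromosome 22, 12266807 to 12276165), an ankyrin-repeat protein first known from muscle, was barely expressed. Each late pregnancy library held 1 to 7 reads, 33 in all, while 5 of the 6 lactation libraries held 0 and lactation MM pool 1 held 1. Scaled to the effective library sizes, the level in late pregnancy was 7.54 times that in lactation, with an exact 95% interval from 1.26 to 306.5 that covers counting error only. The gene did not reach the filter and was not tested with the others. With no filter, over 19350 genes, its fitted change was -2.62 log2 (edgeR, adjusted p = 0.0125), a size that depends on how the zero counts are handled.

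**Figure D2:**
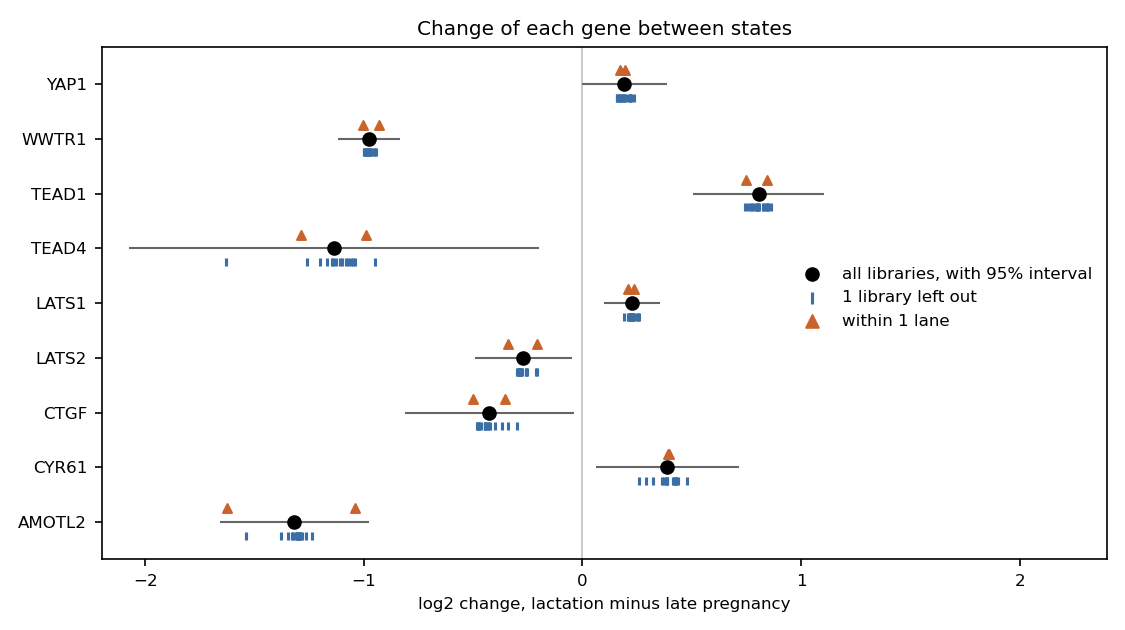
Change of each tested gene from late pregnancy to lactation (x axis, log2; below 0 is lower in lactation), with the estimate and 95% interval over all 15 libraries (black), the estimates with 1 library left out (blue ticks) and the estimates within each of 2 sequencing lanes (orange triangles). WWTR1, TEAD1 and AMOTL2 lie away from 0 in every one of these fits. TEAD4 does too, on few reads and with a wider interval. YAP1, LATS1, LATS2, CTGF and CYR61 lie closer to 0.

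The pools were labelled with 1 of 2 sequencing lanes in their column names, although the sample descriptions say that each was run on both lanes. Lane 7 held 4 late pregnancy and 3 lactation libraries and lane 8 held 5 and 3. Every LM pool was labelled lane 8, so the lane 7 fits held no LM pool. WWTR1 was called in both lanes, where it fell by 0.93 log2 (lane 7) and by 1.00 (lane 8), as were TEAD1 (0.75 and 0.84) and AMOTL2 (-1.04 and -1.62). LATS1 changed by 0.23 log2 in lane 7, where its adjusted p was 0.0602, and by 0.21 in lane 8. CTGF changed by -0.50 and -0.36 log2, LATS2 by -0.34 and -0.21, TEAD4 by -1.29 and -0.99 and CYR61 by 0.39 in each, and none of these 4 was called within a lane.

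Levels were compared between genes as RPKM, reads per kilobase of exon and 1000000 reads, in which values of the 2 states cannot be set side by side directly because of the milk protein reads. By median RPKM, the order in late pregnancy was CTGF (57.5), WWTR1 (28.4), CYR61 (16.1), YAP1 (11.4), LATS1 (8.57), TEAD1 (6.04), LATS2 (5.79), AMOTL2 (5.04), TEAD4 (0.506) and ANKRD1 (0.130). In lactation it was CTGF (14.3), CYR61 (5.26), WWTR1 (4.29), YAP1 (3.73), TEAD1 (2.82), LATS1 (2.82), LATS2 (1.48), AMOTL2 (0.490), TEAD4 (0.0559) and ANKRD1 (0). Neighbours such as LATS2 and TEAD1 in late pregnancy, or YAP1 and WWTR1 in lactation, had overlapping libraries. WWTR1 dropped from the 83.9th to the 66.7th percentile of the tested genes and AMOTL2 from the 38.6th to the 23.0th, while TEAD1 rose from the 42.7th to the 56.3rd.

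Ratios between related genes of the same library do not depend on how libraries are scaled. 4 such ratios were formed after the values above had been seen, and each was compared by an exact two-sided permutation test over all 5005 ways of choosing 6 of the 15 libraries, adjusted over the 4. Per kilobase of exon, there were 0.320 to 0.450 YAP1 reads for each WWTR1 read in late pregnancy (median 0.418), against 0.742 to 1.09 during lactation (median 0.875). The groups did not overlap, and the ratio was 2.24 times as high in lactation (exact permutation, adjusted p = 0.00027, from the smallest p these libraries can give). WWTR1 had already separated by state on its own, while YAP1 was not called. The separation of their ratio and its p largely followed from the fall of WWTR1, so they add no separate support. Reads per kilobase of WWTR1 exceeded those of YAP1 in every late pregnancy library and in all lactation libraries but 1.

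The ratio of LATS1 to LATS2 was 1.17 to 1.60 in late pregnancy (median 1.44), against 1.64 to 3.11 during lactation (median 1.92). The groups did not overlap, with a fold of 1.44 (exact permutation, adjusted p = 0.00027), and the difference was 0.40 log2 without lactation HM pool 1, which held the highest ratio. LATS1 and LATS2 had already been called in opposite directions when this ratio was chosen, so its p adds no separate support. CTGF to CYR61 fell from a median of 3.67 (2.39 to 8.20) to 2.42 (1.65 to 3.22), with overlap and a fold of 1.66 (exact permutation, adjusted p = 0.0118), and it was not called within either lane (-0.82 log2 in lane 7 and -0.66 in lane 8), unlike the other 3 ratios. The deposited model of CTGF covers only 766 bases of exon, so its level per kilobase depends on that model. AMOTL1 to AMOTL2 rose from a median of 0.784 (0.700 to 1.30) to 4.08 (3.31 to 6.91), a fold of 5.62 without overlap (exact permutation, adjusted p = 0.00027). Each of these genes had already separated by state on its own, in opposite directions. The separation of their ratio and its p followed from that, so they add no support. AMOTL1, a second motin-family scaffold outside the 10 genes, and AMOTL2 changed in opposite directions on the TMM scale (1.08 and -1.32 log2), and by unequal amounts in the same direction by library size alone (-0.83 and -3.22 log2).

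**Figure D3:**
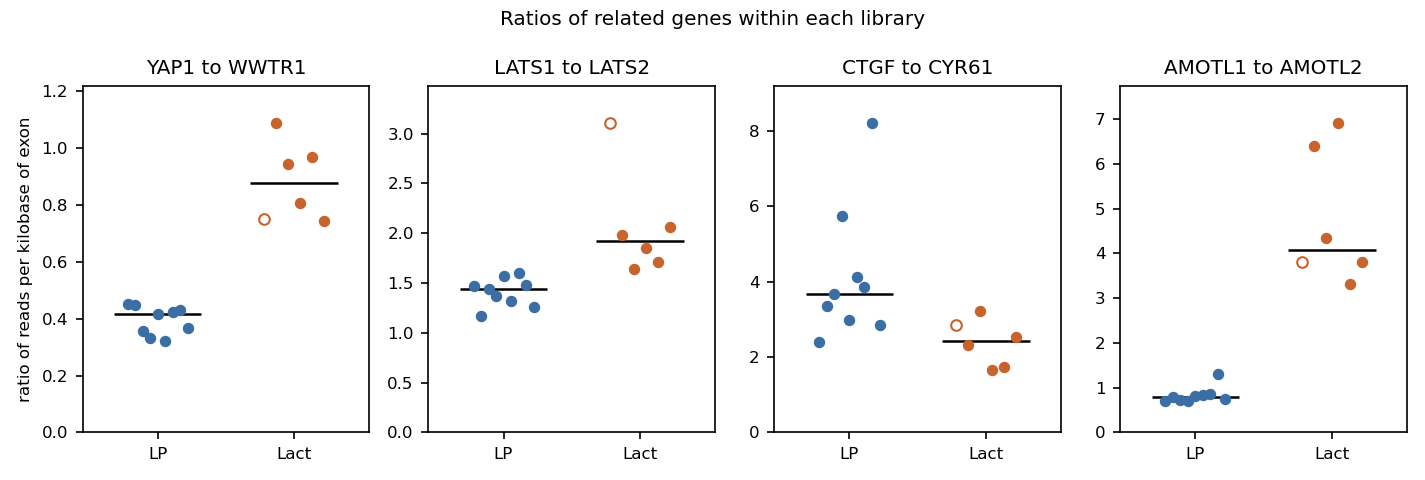
Ratio of 2 related genes within each library, per kilobase of exon (y axis, linear, starting at 0), for late pregnancy (LP, blue) and lactation (Lact, orange), with the median as a line and lactation HM pool 1 as an open circle. The states separate for YAP1 to WWTR1, LATS1 to LATS2 and AMOTL1 to AMOTL2, and overlap for CTGF to CYR61.

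Reads in introns can come from transcripts that are not yet spliced, and they were obtained here by taking the exon reads of a gene from all its deposited reads. On intron reads, 58% of the 10344 testable genes were called between states (edgeR, adjusted p under 0.05), and 7 of the 9 genes found by symbol could be tested. TEAD1 rose by 0.71 log2 (SE 0.11, adjusted p = 5.5e-06) and LATS1 by 0.48 (SE 0.12, adjusted p = 0.0015). AMOTL2 fell by 1.46 (SE 0.26, adjusted p = 3.2e-05), and CTGF fell by 1.66 (SE 0.47, adjusted p = 0.0037) on only 1 to 9 intron reads per lactation library. YAP1 (0.19 log2, adjusted p = 0.234) and LATS2 (-0.28 log2, adjusted p = 0.0948) had changes on introns close to those on exons but were not called. Without lactation HM pool 1, the library with the high intron share, the intron changes were 0.66 log2 for TEAD1, 0.47 for LATS1, -1.32 for AMOTL2 and -1.67 for CTGF, all still called, with 0.20 for YAP1 and -0.26 for LATS2.

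WWTR1 and CTGF had exon and intron changes that lay far apart, in opposite senses: WWTR1 fell on exons while its intron change did not pass the test, and CTGF fell more on introns. For WWTR1, the intron level was 28.4 to 62.0 intron CPM in late pregnancy (median 43.6), against 25.5 to 66.2 during lactation (median 43.6), on 37 to 185 and 19 to 63 reads per library. The groups overlapped almost wholly, and the change was -0.03 log2 (SE 0.17, adjusted p = 0.899), or -0.15 (adjusted p = 0.485) without lactation HM pool 1, whereas exon reads had fallen by 0.98 log2. The number of WWTR1 exon reads for each intron read was 10.6 to 25.1 in late pregnancy (median 16.6), against 4.98 to 11.4 during lactation (median 7.77). Centred on the median gene of each library, that ratio fell by 1.00 log2 (SD between libraries 0.37 and 0.38, exact permutation over 5005 splits, adjusted over 7 genes p = 0.0028), and by 0.89 without lactation HM pool 1 (exact permutation, adjusted p = 0.0070). Within lanes it fell by 0.93 log2 (lane 7, adjusted p = 0.40) and by 1.05 (lane 8, adjusted p = 0.0625); a single gene cannot pass the exact permutation test within a lane after adjustment over 7 genes. The median gene had 3.35 to 3.93 exon reads per intron read in late pregnancy and 3.42 to 3.98 in lactation, and 3.88% of 9725 genes had a change as low as that of WWTR1 or lower. Among the other 6 genes, the ratio changed by -0.28 log2 for LATS1 (exact permutation, adjusted p = 0.0154) and by 1.15 for CTGF (exact permutation, adjusted p = 0.0070). The CTGF ratio was unsteady, with an SD of 0.37 in late pregnancy and 0.87 in lactation, where libraries held 1 to 9 intron reads. Its change was 0.22 log2 in lane 7 and 2.02 in lane 8. The values for YAP1 (-0.05), TEAD1 (0.07), LATS2 (0.01) and AMOTL2 (0.18) did not pass the test. This comparison was chosen after the exon and intron changes had been seen.

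**Figure D4:**
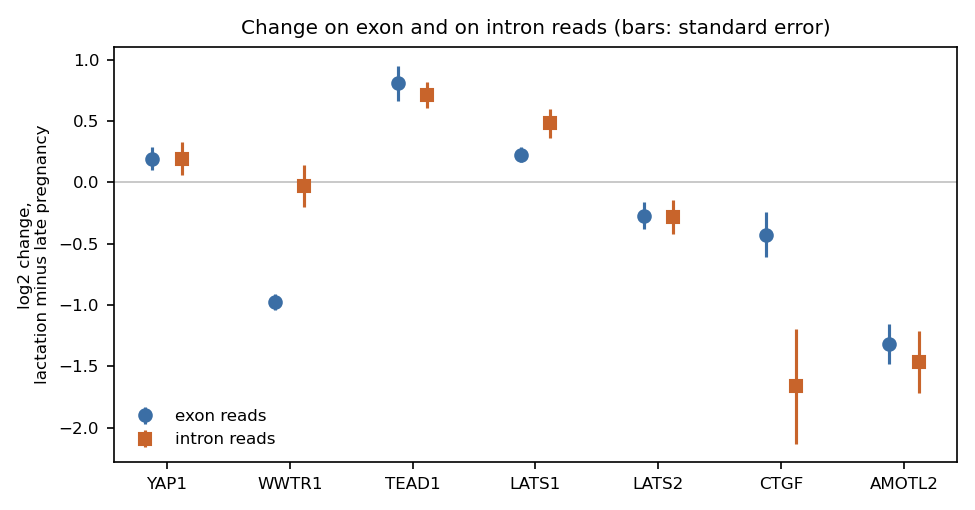
Change from late pregnancy to lactation (y axis, log2) on exon reads (blue circles) and on intron reads (orange squares) for the 7 genes tested on both, with standard errors as bars. The exon and intron changes lie far apart for WWTR1, at -0.98 and -0.03, and for CTGF, at -0.43 and -1.66.

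The rest of the pathway was described from lists of genes by role. Over 69 tested genes of 6 such lists, 25 were higher in lactation, 25 lower and 19 not called, with a median change of 0.04 log2 against -0.03 for all tested genes. Of all tested genes, 68.4% were called, 33.1% higher and 35.2% lower, so the lists together lay near that background. The counts of each list below stand beside the same shares. Of those 69, 8 passed the low-count filter through their late pregnancy libraries alone. Where such a gene was lower in lactation, that direction is tied to its being tested at all.

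The 25 upstream regulators, from the MST kinases to the junctional scaffolds, gave 6 higher, 10 lower and 9 not called, with a median of -0.03 log2. AMOTL1 rose by 1.08 log2 (SE 0.10), CRB3, a polarity protein of the apical membrane, by 0.83 (SE 0.16), and TAOK1, a kinase that activates MST1 and MST2, by 0.66 (SE 0.098). AJUBA, a LIM protein that inhibits LATS kinases, fell by 1.28 (SE 0.11), WWC2, a KIBRA relative, by 0.95 (SE 0.12), and WTIP, a relative of AJUBA, by 0.94 (SE 0.31). Their adjusted p-values by edgeR ran from 4.2e-09 for AJUBA to 0.0112 for WTIP, which had 0 to 14 reads in lactation. WTIP passed the filter through late pregnancy alone, where 9 libraries exceeded the cutoff against 0 in lactation. The core kinases STK3 and STK4 (MST2 and MST1) were among the genes not called.

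STRIPAK is a phosphatase complex that dephosphorylates MST1 and MST2. Of its 12 listed genes 6 were higher, 2 lower and 4 not called, with a median of 0.12 log2. FGFR1OP2 rose by 0.57 (SE 0.12), the scaffold STRN by 0.47 (SE 0.11) and the catalytic subunit PPP2CA by 0.47 (SE 0.046). STK24 fell by 0.39 (SE 0.070), and PPP2R1A, the scaffold subunit of the phosphatase, by 0.14 (SE 0.059), a call that was lost when any of 10 libraries was left out (adjusted p = 0.0506 to 0.108): all lactation libraries but LM pool 2, and late pregnancy HM pool 3, LM pools 1 and 3 and MM pools 1 and 3.

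The 10 genes whose products hold YAP1 and TAZ in the cytoplasm or mark them for degradation, the 14-3-3 proteins, BTRC and 2 casein kinases, were mostly higher on the TMM scale, though lower, like most genes, by library size alone. There were 8 higher, 1 lower and 1 not called, with a median of 0.24 log2, but this balance depended on the setting. It was 4 higher and 3 lower by limma on quantile-normalized RPKM, and 5 higher and 0 lower with at least 10 reads in every library, while 4 genes were higher within lane 7 and 5 within lane 8. Lane 7 alone called 6908 of all 13345 tested genes in either direction, and lane 8 alone 7723. SFN (14-3-3 sigma) rose by 0.95 (SE 0.23), YWHAZ by 0.53 (SE 0.093) and YWHAB by 0.39 (SE 0.046). Only 42.8% of the YWHAZ reads were uniquely placed, so its value is uncertain. CSNK1E, a casein kinase that helps mark TAZ and YAP1 for degradation, fell by 2.54 log2 (SE 0.20), from 5.63 to 8.79 CPM down to 0.703 to 2.20 CPM without overlap. It passed the filter through late pregnancy, where 9 libraries exceeded the cutoff against 1 in lactation, on 4 to 17 lactation reads. Its lower level in lactation is therefore tied to its being tested at all.

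All 4 tested genes of the TEAD and VGLL list were lower, and 2 of the 6 listed (VGLL2 and VGLL3) were too low to test. VGLL1 passed the filter through late pregnancy alone, where 9 libraries exceeded the cutoff against 0 in lactation. Its lower level in lactation is therefore tied to its being tested, and its call adds no separate support. VGLL1, a cofactor that competes with YAP1 for TEAD, went from 1.34 to 2.74 CPM in late pregnancy to 0 to 0.348 CPM in lactation, with 0 to 4 reads per lactation library, and its fitted change was -3.70 log2 (SE 0.43, adjusted p = 2.4e-07). TEAD2 fell by 0.62 log2 (SE 0.084) and VGLL4, another TEAD cofactor, by 0.58 (SE 0.15). TEAD3 fell by 0.27 (SE 0.12, edgeR adjusted p = 0.0472), at the edge of the threshold. Its call was lost by DESeq2 (adjusted p = 0.0553), within lane 7 (0.429) and without any of 10 libraries (0.0528 to 0.112): late pregnancy HM pools 1 and 2, LM pools 1 and 3 and MM pool 2, and all lactation libraries but MM pool 1. On the TMM scale TEAD1 was the one TEAD gene that was higher (by library size alone it was lower, at -1.11 log2), while TEAD2, TEAD3 and TEAD4 were lower.

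Among 15 tested genes of a further target list, 2 were higher, 8 lower and 5 not called, with a median of -0.31 log2, and 4 of the 15 (ASAP1, FJX1, GADD45A and NUAK2) passed the filter through late pregnancy alone. NT5E, the ecto-5'-nucleotidase CD73, rose by 2.25 log2 (SE 0.16), from 2.38 to 4.33 CPM up to 9.92 to 24.7 CPM without overlap. F3 (tissue factor) rose by 0.44 (SE 0.16, adjusted p = 0.018), a call lost without lactation MM pool 1 (adjusted p = 0.0866). NUAK2, a kinase, fell by 1.56 (SE 0.25), GADD45A, a growth-arrest and DNA-damage gene, by 1.51 (SE 0.26), and FJX1 by 1.16 (SE 0.47, adjusted p = 0.033). The FJX1 call was lost without late pregnancy LM pool 3 (adjusted p = 0.053) or MM pool 3 (0.0506), or lactation LM pool 1 (0.0806), LM pool 2 (0.0693) or MM pool 2 (0.0907), and within lane 7 its change was 0.16 log2 in the opposite direction.

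The CCN genes other than CTGF and CYR61 were all higher where they could be tested, but not by library size alone, where the change of NOV was -0.15 log2 and those of WISP2 and WISP3 were -0.54 each. NOV (CCN3) rose by 1.77 log2 (SE 0.19), WISP2 (CCN5) by 1.36 (SE 0.23) and WISP3 (CCN6) by 1.36 (SE 0.18), with adjusted p-values of 8.8e-08, 2.8e-05 and 1.8e-06 by edgeR. NOV ranged from 1.15 to 3.36 CPM in late pregnancy and from 6.79 to 8.68 CPM in lactation, and WISP3 from 5.09 to 14.7 and from 16.9 to 24.6 CPM, both without overlap. WISP1 was too low to test. CTGF was the one tested CCN gene with a negative change on the TMM scale.

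**Figure D5:**
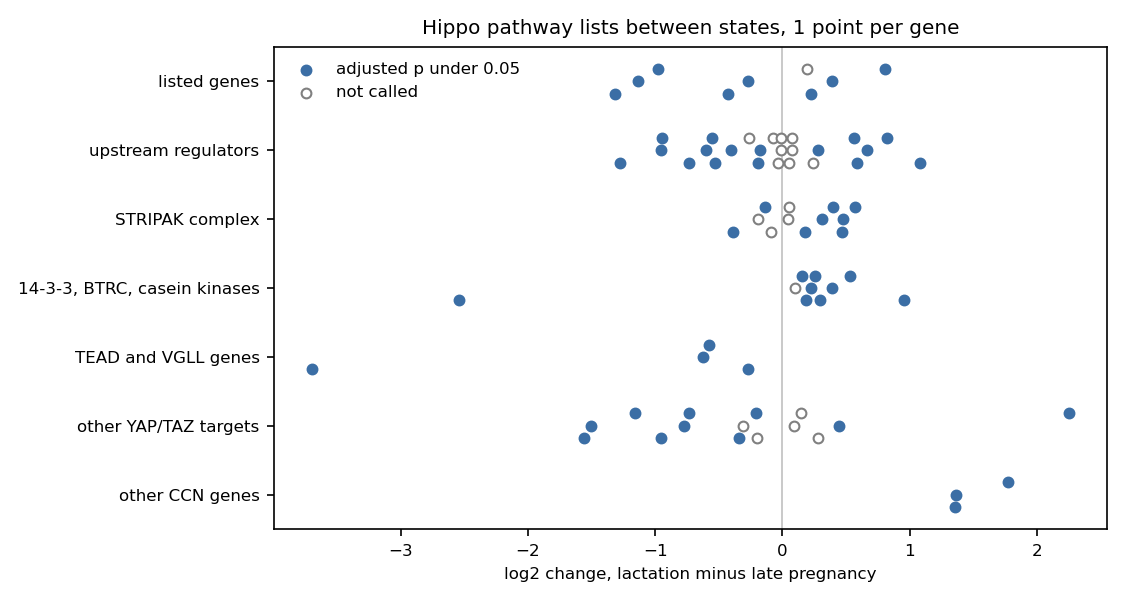
Change from late pregnancy to lactation (x axis, log2) of every tested gene of the listed set and of the 6 lists by role, 1 point per gene, filled where the adjusted p was under 0.05. The TEAD and VGLL genes lie below 0 and, on the TMM scale, the other CCN genes above it, while upstream regulators spread to both sides.

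The tissue itself changed between the states, and several of these genes are expressed by more than one cell type. In bulk tissue, fewer cells of a type and less RNA per cell cannot be told apart. The counts of called markers below stand beside the 68.4% called of all tested genes, 35.2% lower and 33.1% higher. Summed over 7 fibroblast markers, levels were 1326 to 2120 CPM in late pregnancy and 627.6 to 1017 in lactation, with 5 of the 7 lower and 0 higher. The 5 endothelial markers summed to 189.2 to 258 and 133.6 to 188.8 CPM, with 4 lower, and the 3 macrophage markers to 62.0 to 82.6 and 35.3 to 52.8 CPM, with 2 lower. The 6 luminal epithelial markers summed to 1417 to 1736 and 2290 to 2551 CPM, with 4 higher, while KRT8 and CDH1 were not called. Within that sum ELF5 went from a mean of 629 to 1100 CPM and KRT19 from 622 to 947. The 6 myoepithelial markers overlapped at 553.7 to 625.7 and 524.7 to 777.7 CPM, but 3 of them were higher and 2 lower. Of 4 pericyte markers 2 were lower and 0 higher, and of 3 tested adipocyte markers 0 were called. The sum of 4 skeletal muscle markers stayed at or under 2.34 CPM. The part of these shifts in the changes of WWTR1, AMOTL2, TEAD1, CTGF and the other listed genes was not tested.

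Feed of the ewes' dams was compared within the 9 late pregnancy pools, 3 for each group. By the column names, every LM pool was on lane 8, with HM pool 3 and MM pool 3, and the other HM and MM pools on lane 7. A difference of LM from HM therefore cannot be fully told apart from one between these lane labels. By edgeR, 0% of 13747 genes were called over the 3 groups (571 had an unadjusted p under 0.05), 0% were called for LM against HM (471 unadjusted), and for a difference of the state change between dam groups 0% of 13345 (876 unadjusted). DESeq2 called 20, 7 and 21 genes in the same comparisons, and none of the listed genes. WWTR1 was 79.2 ± 6.91 CPM in HM, 80.0 ± 4.63 in MM and 90.3 ± 9.28 in LM (SD, n = 3 each), a change from HM to LM of 0.19 log2 (95% interval -0.01 to 0.40, edgeR adjusted p = 1.00). CTGF was 29.5 ± 7.95, 33.3 ± 10.4 and 36.5 ± 16.1 CPM (SD, n = 3 each), with an interval from HM to LM of -0.33 to 0.95 log2. YAP1 was 12.9 ± 1.96, 12.7 ± 0.418 and 12.6 ± 2.57 CPM (SD, n = 3 each), with an interval of -0.35 to 0.30 log2. CYR61 had the smallest unadjusted p of the listed genes for a state change that depended on dam group (0.0449), which was 0.742 after adjustment by edgeR.

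Within states, the genes varied together only in part. After subtracting each state's mean of log2 CPM, YAP1 and TEAD1 had r = 0.70 over the 15 libraries, YAP1 and CTGF r = -0.61, and CTGF and CYR61 r = 0.13. The late pregnancy library with the most CTGF, LM pool 1, had the least YAP1 and TEAD1. These values are descriptions over libraries that share their scaling. Of 11525 genes with at least 1 CPM in both states, the genes most like YAP1 by this measure were N4BP2 (r = 0.88), KIF2A and SFT2D2 (0.88 each), and those most like WWTR1 were LIMA1 (0.84), FBXL5 (0.79) and TMEM106B (0.78). CTGF was most like PSMD4 (0.85), SF3A2 and ZNF276 (0.84 each), and CYR61 most like LOC101115864 (0.87), which the RefSeq gene table names CLDN5, an endothelial junction gene, then LOC101110915 (ENTPD2, 0.86) and LOC101102690 (0.86).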

How the data were processed

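RNA of 15 pools was sequenced (TruSeq, Illumina Hi-Seq, paired ends) and mapped by the authors to the sheep genome in CLC Genomics Workbench. The submitters' processing notes name Oar_v3.1 and the study's methods a later version; coordinates are those of the deposited table. The deposited counts are the authors' numbers of reads on exons and on the whole gene, in all or placed uniquely, and carry no normalization. RPKM in the deposited table are the authors' reads per kilobase of exon and 1000000 reads on genes, and a further set of those RPKM was quantile-normalized. The deposited fold changes and p-values come from the authors' own comparison and were not used.

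Exon counts (all placements) were filtered with edgeR's filterByExpr by state, which needs about 0.718 CPM in enough libraries, scaled by TMM, and tested with edgeR 4.0.16 quasi-likelihood fits (R 4.3.3, limma 3.58.1, DESeq2 1.42.0, Python 3.11.15), two-sided, with state as the only term, all 15 libraries and Benjamini-Hochberg adjustment over all tested genes. CPM are per 1000000 TMM-scaled reads. Dam nutrition was fitted within the 9 late pregnancy pools. Likeness used log2(CPM + 0.5). Exon-to-intron ratios added 0.5 reads to each count and used genes with at least 150 reads of each kind. The fits were tested on simulated data. No label says that pools came from separate sets of ewes, and ewes recur in both states, so p-values measure the spread between these pools. The main test treated all 15 libraries as independent, which repeated sampling of ewes does not ensure. Reads were counted without molecular identifiers, so the counting interval covers counting error only.

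The genes, lists and tests were chosen with earlier results of these data known. The 10 listed genes were all described. From each other list the text names up to 3 called genes in each direction with the largest change and a mean of at least 1 CPM in either state, and other genes of small counts were named after their values were seen. Of the 74 symbols of those lists 73 were found. Pools with the same dam group and number in both states did not deviate together (6 pairs, r = -0.05 to 0.11), so they were not treated as paired. That bears on the pool numbers only, since ewes recur in both states and no label ties an animal to a pool.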

Additional observations from a re-analysis of the deposited data

Results flagged for a closer look

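Over 28 groups of libraries (each gene or ratio within a state), 6 held 1 library far from the rest, by the gap to its nearest neighbour relative to the whole range; chance alone marks about 1 group in 20. LATS2 was 20.4 CPM in late pregnancy HM pool 2, with the other 8 libraries at 12.7 to 16.2, and 9.01 CPM in lactation HM pool 1, with the others at 11.8 to 13.3. The LATS1 to LATS2 ratio of lactation HM pool 1 was 3.11, with the others at 1.64 to 2.06. That library is the one with a high share of intron reads, and the part of that share in these values was not tested. CTGF was 16.5 CPM in lactation HM pool 2, with the others at 24.4 to 29.0. ANKRD1 was 0.0870 CPM in lactation MM pool 1, on 1 read, with the others at 0. The AMOTL1 to AMOTL2 ratio of late pregnancy MM pool 2 was 1.30, with the others at 0.700 to 0.858.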

How the results depend on the processing

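Of the 8 genes found by symbol and tested, 7 were called with all libraries. DESeq2, RLE factors, no filter, uniquely placed reads, limma on quantile-normalized RPKM (pseudocount 1 or 0.1) and the dam group as covariate also called 7, and a minimum of 10 reads in every library called 6, with TEAD4 untested. Within lanes the count was 3 (lane 7) and 4 (lane 8), with fewer libraries, and with 1 library left out it was 4 to 8, lowest without lactation MM pool 2. Of all 13345 tested genes, 9122 were called with all libraries, 6908 within lane 7, 7723 within lane 8 and 8890 without lactation MM pool 2. WWTR1 and AMOTL2 kept direction and call throughout. CYR61 lost its call under 6 of 13 other settings, CTGF and LATS2 under 3 each and TEAD4 under 2 of 12; the cause was not tested. The other pathway lists held 50 called genes, 35 to 68 under the alternatives. The share of all genes called moved too, and library size alone called 13057 of the 13345. Counts per list also moved by over 1.5 times: the 14-3-3, BTRC and casein kinase list (8 higher, 1 lower) became 0 to 8 and 0 to 10, STRIPAK (6 and 2) 0 to 6 and 1 to 12, the further targets (2 and 8) 1 to 3 and 5 to 14, the upstream list (6 and 10) had 0 and 25 and the CCN list (3 and 0) 0 and 2 by library size alone.

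Library size alone lowers most genes that are not milk proteins, though not NT5E (0.34 log2). It reversed YAP1 (-1.72 log2), TEAD1 (-1.11), LATS1 (-1.68), CYR61 (-1.51), AMOTL1 (-0.83), CRB3 (-1.07), TAOK1 (-1.24), FGFR1OP2 (-1.33) and STRN (-1.44). Also reversed were PPP2CA (-1.44), SFN (-0.96), YWHAZ (-1.38), YWHAB (-1.52), F3 (-1.46), NOV (-0.15), WISP2 (-0.54) and WISP3 (-0.54). Relative to the median gene of that setting TEAD1 was 0.83, LATS1 0.26, YAP1 0.21 and CYR61 0.43. FJX1 reversed within lane 7 (0.16). The WWTR1 intron change was 0.053 with the TMM sizes of the exon reads. Exon reads per intron read, all uncalled, reversed for LATS2 uncentred (-0.049), in lane 7 (-0.14) and with 1 library left out (-0.050 to 0.064), for YAP1 (5.9e-05) and TEAD1 (-0.15) in lane 7, and for AMOTL2 in lane 8 (-0.21) and with 1 library left out (-0.19 to 0.38). Within lanes no exact test of exon reads per intron read passed after adjustment.

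Dam group and pool number were also used as a replicate block, a pairing that the libraries did not bear out (1 of 6 pairs matched best). With it, 6 of the 8 genes and 43 of the other lists were called, beside 8464 of all 13345 tested genes. LATS2 (-0.25 log2, edgeR adjusted p = 0.0629), F3, FJX1 and PPP2R1A lost their calls. Dam nutrition gave 0 listed genes under every alternative, and intron reads gave 4. Depth limits TEAD4, ANKRD1 and the intron reads of CTGF.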
